A study of Rattus norvegicus with 61 samples.

Results

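The livers of rats given acetaminophen (APAP) were compared with those of rats given vehicle, 24 h after a single dose. The members were the 5 APAP livers and the 5 vehicle (Ctrl) livers, 10 of the 61 RNA sequencing samples of a study that built a rat-specific deconvolution, a calculation of immune cell proportions from tissue expression profiles. The rats were wild-type male Sprague-Dawley animals of 6 weeks that were fasted overnight. APAP was given by gavage at 3 g/kg, and the Ctrl rats received 0.5% methylcellulose. A further group of 5 livers, taken 24 h after 300 mg/kg methylene dianiline (MDA), entered the same model and served as the point of comparison. The labels give each liver a replicate number, and the p-values measure the spread between these livers. The other samples used were 6 immune cell types sorted from untreated rats, with 6 samples each. CD4 T cells, CD8 T cells, NK cells and B cells came from the spleen, and neutrophils and monocytes from the blood.

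APAP is an analgesic that the liver clears mostly by conjugation. At high doses, cytochrome P450 enzymes in hepatocytes turn part of it into a reactive quinone imine that depletes glutathione, binds protein and kills the hepatocytes around the central veins. Hepatocytes devote much of their mRNA to a small number of secreted and metabolic proteins, and neutrophils and monocytes are known to enter the injured tissue. MDA is better known for damage to the bile ducts.

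The table names transcripts by Ensembl identifiers and gives no gene symbols. Of its 31196 identifiers, 0 matched the annotation at hand, so transcripts are grouped here by their level and not by gene function, and the tissue label could not be checked against named markers. Levels are in CPM, the count of a transcript as a share of its library total, scaled to a total of 1000000. The count that 1 read contributes differs between transcripts, and no further length correction was made, so the abundance classes are classes of these values and not of molecules per cell. In bulk liver, fewer cells of a type and less RNA per cell cannot be told apart. Transcripts of 1 gene or of near-identical genes can trade reads in the estimate, and the value of any single one carries that uncertainty.

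Library totals ran from 10484912 to 12547746 in Ctrl livers and from 10524187 to 12059098 in APAP livers. The Ctrl 1 liver stood apart from its group. Its root mean square distance from the mean of the other 4 Ctrl livers was 0.603 on the log2(CPM + 1) scale after TMM scaling, and the other Ctrl livers lay between 0.482 and 0.502. Results without it are given where they moved.

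After APAP the liver library was spread over more transcripts. In the Ctrl livers, 34, 49, 38, 45 and 58 transcripts were enough to hold 50% of the total. In the APAP livers, 101, 103, 148, 106 and 127 were needed. The groups did not overlap, and every APAP liver needed more transcripts than the Ctrl liver with the most. The MDA livers took 79 to 125. The 100 transcripts that were most abundant in Ctrl livers held 56.1% to 62.1% of the Ctrl totals and 44.3%, 44.3%, 39.9%, 44.8% and 43.7% of the APAP totals.

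**Figure D1:**
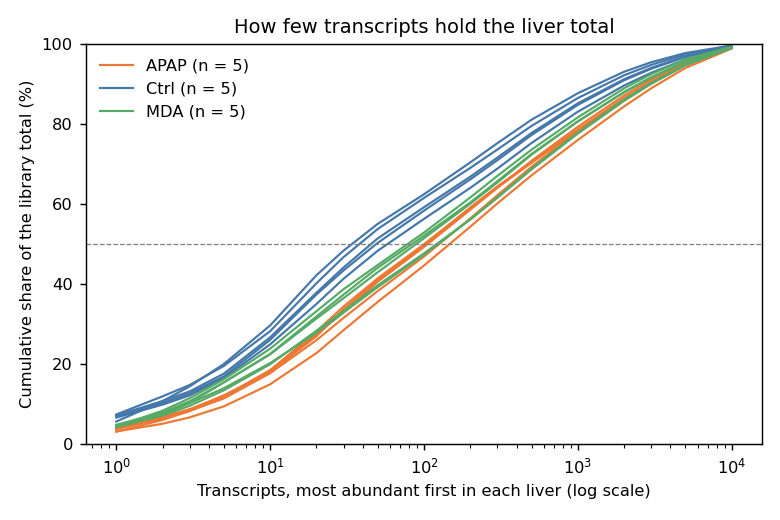
Cumulative share of the library total (%) against the number of transcripts, taken from the most abundant down in each liver (log axis). Each line is 1 liver of the Ctrl, APAP or MDA group (n = 5 each), and the dashed line marks 50%, which Ctrl livers reach after 34 to 58 transcripts and APAP livers after 101 to 148.

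Share lost by the most abundant transcripts is gained by the rest, whatever their own change. Trimmed mean of M values (TMM) scaling, which leaves the most abundant and most changed transcripts out of the scaling factor, was used to set that aside. The TMM factors were 0.601 to 0.915 in Ctrl livers and 1.11 to 1.37 in APAP livers. On this scale the median log2 fold change over all transcripts tested was 0.05. With library size alone it was 0.75, and with the library size counted without the 100 most abundant transcripts it was 0.27. Every change below is relative to the TMM reference.

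Of 13482 transcripts tested, 2738 rose (20.3%) and 2766 fell (20.5%) after APAP at an adjusted p under 0.05 (edgeR quasi-likelihood test, Benjamini-Hochberg over all transcripts tested), 40.8% in either direction. The median log2 fold change was 0.88 among those that rose and -1.0 among those that fell. A change of at least 4-fold was reached by 361 of the transcripts that rose and 399 of those that fell. The 5 APAP livers lay wholly above the 5 Ctrl livers for 1783 transcripts tested (13.2%) and wholly below them for 1954 (14.5%), and 1851 of the changed transcripts had some overlap. The share of changed transcripts that rose was 49.7% with TMM. It was 88.6% with library size alone, which gave 7505 higher and 966 lower, and 67.3% with the library size without the 100 most abundant transcripts, which gave 4096 higher and 1994 lower. Without the Ctrl 1 liver, 2739 rose and 2596 fell.

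The transcripts that were most abundant in Ctrl livers fell. All of the 10 most abundant were lower in APAP livers, at a median log2 fold change of -1.48. Of the 100 most abundant, 78 fell and 8 rose (median -1.14), and of the 1000 most abundant, 622 fell and 104 rose (median -0.76). The background for a fall was 20.5% of all transcripts tested. After MDA the same top 100 held 62 that fell and 2 that rose against the same Ctrl livers, with a median of -0.86. Over all transcripts tested, 11.3% fell and 10.6% rose after MDA.

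The share that fell climbed through the classes of Ctrl level, and the share that rose declined. At 1 to 10 CPM in Ctrl livers, 1496 of 7460 transcripts rose (20.1%) and 948 fell (12.7%), with a median of 0.10. At 10 to 100 CPM, 749 of 3855 rose (19.4%) and 1189 fell (30.8%), with a median of -0.09. At 100 to 1000 CPM, 93 of 875 rose (10.6%) and 533 fell (60.9%), with a median of -0.73. In the class of 1000 CPM and above, 8 of 111 rose (7.21%) and 84 fell (75.7%), with a median of -1.13. Every APAP liver showed the fall of that last class, with medians from -1.41 to -0.94 against the Ctrl mean. Of the transcripts under 1 CPM in Ctrl livers, 1181 of 18745 passed the filter, for many of them through the treated livers. Their 392 rises and 12 falls therefore describe the filter as well as the livers.

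Since the Ctrl livers set both the class and the comparison, the classes were also set by the Ctrl 1 and 2 livers and the fold changes taken against the Ctrl 3 to 5 livers. Then 78 transcripts fell and 8 rose at 1000 CPM and above, and 463 fell and 106 rose at 100 to 1000 CPM. Classed by the mean of all 15 livers, 69 fell and 22 rose at 1000 CPM and above. Class sizes under these settings are not given here, so the counts cannot be read as shares. The Ctrl 1 liver, part of the classing pair, is the one that stood apart from its group. The median log2 fold change of transcripts at 100 CPM and above was below that of transcripts at 1 to 100 CPM by -0.80 with TMM. The gap was -0.78 with library size alone, and lay between -0.89 and -0.74 when each liver was left out in turn. A scaling factor moves all transcripts of a library by nearly the same amount, so the value under another scaling is not a separate test of the gap.

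**Figure D2:**
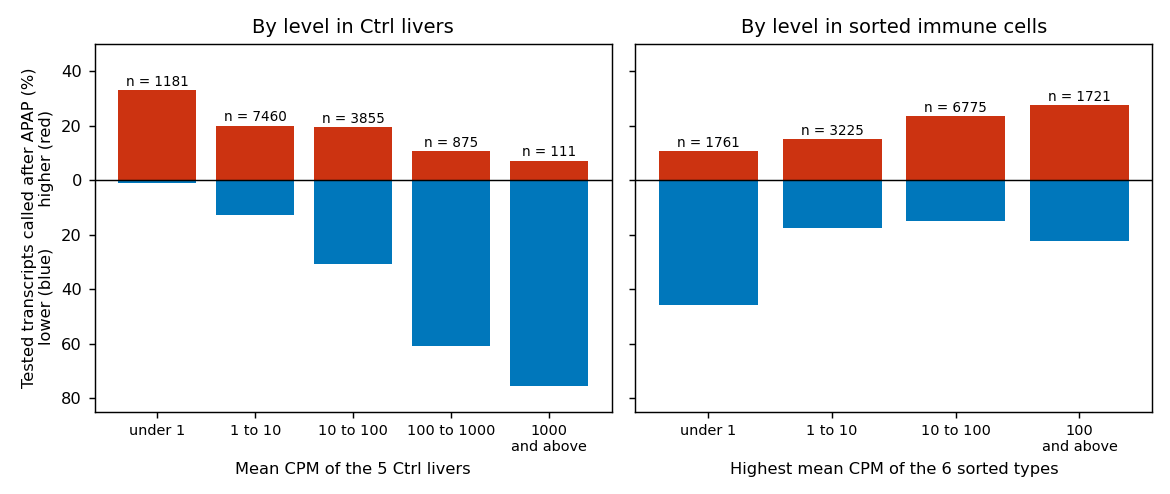
Share of tested transcripts (%) that rose (red, upward) or fell (blue, downward) after APAP, in classes of the Ctrl level on one panel and of the highest level in the sorted immune cell types on the other, both in CPM. The share that fell is 75.7% at a Ctrl level of 1000 CPM and above, and 45.8% among transcripts under 1 CPM in every sorted type.

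The level in the sorted immune cells gave a second ordering, one that does not use the livers. Each transcript was placed by the highest of its 6 mean levels in the sorted types. Transcripts under 1 CPM in all 6 types are those that these immune cells scarcely carry, whatever resident liver cell carries them. Of the 15723 such transcripts, 1761 were tested, 806 fell (45.8%) and 188 rose (10.7%), at a median log2 fold change of -0.67. It was -0.68 with transcripts at or under 3 counts in all livers of a group set at 3 counts in that group. Without the Ctrl 1 liver, 775 fell and 180 rose. The 5 APAP livers each showed the fall, with medians from -0.62 to -0.38. Among the 11721 tested transcripts at 1 CPM or more in some sorted type, 2550 rose (21.8%) and 1960 fell (16.7%), with a median of 0.11. The share that rose went from 15.0% at 1 to 10 CPM to 23.5% at 10 to 100 CPM and 27.4% at 100 CPM and above. The share that fell was 17.6%, 14.9% and 22.3% in the same classes, so at 100 CPM and above both directions stood over the 20.3% and 20.5% of all transcripts tested. The medians of the 3 classes were 0.01, 0.14 and 0.10.

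The difference between the medians of transcripts under 1 CPM in all sorted types and of the others was -0.78. It was -0.79 with library size alone and -0.76 without the Ctrl 1 liver. It shrank to -0.21 when no filter on low levels was applied and grew to -1.14 with a filter of 10 CPM, so its size depends on the filter.

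In the library totals, transcripts under 1 CPM in every sorted type held 33.6%, 39.3%, 35.7%, 39.7% and 39.5% in the Ctrl livers, a mean of 37.6% ± 2.76 (SD, n = 5). They held 23.3%, 23.7%, 23.3%, 24.6% and 27.0% in the APAP livers, a mean of 24.4% ± 1.55 (SD, n = 5). The highest APAP liver lay below the lowest Ctrl liver. The MDA livers lay between, at 25.9% to 30.4%, and overlapped the APAP range. Transcripts at 10 to 100 CPM in the sorted types took up share, from 13.5% ± 1.13 (SD, n = 5) in Ctrl livers to 19.5% ± 0.755 in APAP livers, again with no overlap. Those at 100 CPM and above held 42.7% ± 4.11 and 48.5% ± 1.27, and their ranges overlapped. These shares are fractions of a fixed total, so one class gains where another loses.

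Ctrl level and sorted level were then crossed, since transcripts absent from immune cells are also frequent at the top of the Ctrl range. Within each of the 4 classes at 1 CPM and above in Ctrl livers, the transcripts under 1 CPM in the sorted types had the lowest median. In the class under 1 CPM, which the filter shapes, their median was 0.83, against 0.80 for those at 1 to 10 CPM in the sorted types and 1.16 for those at 100 CPM and above. At 1 to 10 CPM in Ctrl livers the median was -0.57 for the 850 transcripts under 1 CPM in the sorted types and 0.22 for the 3983 at 10 to 100 CPM there. At 10 to 100 CPM in Ctrl livers, 276 of the 402 transcripts under 1 CPM in the sorted types fell and 15 rose (median -1.09), whereas 150 of the 785 at 100 CPM and above in a sorted type fell and 244 rose (median 0.16). At 100 to 1000 CPM the same extremes had medians of -1.38 (216 transcripts, 166 that fell and 5 that rose) and -0.18 (389 transcripts, 153 that fell and 76 that rose). At 1000 CPM and above, 50 of the 56 transcripts scarce in sorted cells fell (median -1.58), and for 45 of the 56 the APAP livers lay wholly below the Ctrl livers. In that same class, 27 of the 44 transcripts at 100 CPM and above in a sorted type fell and 4 rose (median -0.73). Transcripts that liver and immune cells share thus also fell where their Ctrl level was highest.

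**Figure D3:**
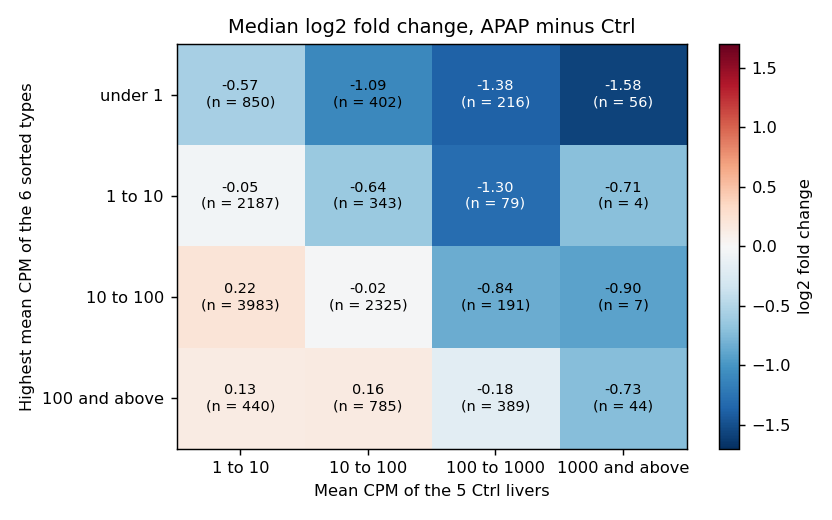
Median log2 fold change (APAP minus Ctrl, colour scale) of tested transcripts by class of Ctrl level in CPM (columns, the class under 1 CPM not drawn) and of the highest sorted cell type level in CPM (rows). The values drawn run from 0.22 at their highest to -1.58 for transcripts at 1000 CPM and above in Ctrl livers and under 1 CPM in every sorted type.

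The largest falls and the largest rises differed in where they stood in the sorted types. Of the 399 transcripts that fell at least 4-fold, 228 (57.1%) were under 1 CPM in every sorted type, against 13.1% of all transcripts tested, and 25 were at 1000 CPM and above in Ctrl livers. Of the 361 that rose at least 4-fold, 74 (20.5%) were under 1 CPM in every sorted type, above the share of all transcripts tested. A further 111 (30.7%) were at 1 to 10 CPM in their highest type, against 23.9% of all tested, 121 (33.5%) at 10 to 100 CPM, against 50.3%, and 55 (15.2%) at 100 CPM and above, against 12.8%. The Ctrl mean was under 1 CPM for 223 of these 361, a class that the filter shapes. Of the 1181 transcripts tested in that class, 237 were under 1 CPM in every sorted type. The 20.5% therefore describes the filter as well as the rises. No transcript at 1000 CPM and above in Ctrl livers rose 4-fold. In 92 of the transcripts tested, all 5 Ctrl livers held 3 counts or fewer, and 65 of these rose. Such transcripts pass the filter only through the treated livers, so a rise was largely set in advance. The fitted fold change of the 65 is no measurement of its size. Of the 65, 34 were under 1 CPM in every sorted type, against 13.1% of all transcripts tested. At 10 CPM or more in some type were 10 of the 65. The MDA livers were all at 3 counts or fewer for 5 of the 65. These counts too describe the filter as well as the livers.

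Neutrophils are short-lived phagocytes and the first blood leukocytes to reach injured tissue. A transcript was taken as restricted to a sorted type where it reached 10 CPM there and 4 times the level of the next type. Of 150 neutrophil-restricted transcripts, 71 were tested, 26 rose and 16 fell, at a median log2 fold change of 0.47. The background over all transcripts tested was 20.3% for a rise and 20.5% for a fall. The direction split by Ctrl level. At 1 to 10 CPM in Ctrl livers, 15 of 39 rose and 4 fell (median 0.61), while at 10 CPM and above 1 of 18 rose and 12 fell (median -0.72). This split is not particular to the list. Of all transcripts tested, 20.1% rose and 12.7% fell at 1 to 10 CPM, and 30.8%, 60.9% and 75.7% fell in the 3 classes from 10 CPM up. The monocyte-restricted transcripts described below had medians of -0.21 and -0.90 at the same 2 levels. That list thus fell further at the higher level, without a change of direction. Under 1 CPM, 14 of 93 passed the filter, and 10 of these rose and 0 fell. The filter shapes that class, so the 26 rises and the median of 0.47 rest in part on it. In the 2 classes from 1 CPM up, the rises were 15 and 1 and the falls 4 and 12. With a filter of 10 CPM the median of the list, relative to all transcripts, turned negative (-0.31), and with restriction set at 2 times the next type it was 0.05. Of the 56 neutrophil-restricted transcripts at 3 counts or fewer in every Ctrl liver, 33 stayed at 3 counts or fewer in every APAP liver and 5 were above that in all 5.

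The summed level of the neutrophil-restricted transcripts was 8449, 5194, 6736, 5090 and 4508 TMM-scaled CPM in the Ctrl livers and 4737, 5272, 3627, 5879 and 4871 in the APAP livers. These ranges overlapped. A single transcript supplied 69.8% of the Ctrl sum, and its mean in sorted neutrophils was 53.1 CPM, far under its 2777 to 6216 TMM-scaled CPM in Ctrl livers. Without it the sums were 1812 ± 247 (SD, n = 5) in Ctrl, 1999 ± 395 in APAP and 1637 ± 73.5 in MDA livers. The log2 ratio of the group means was -0.30 for the whole list, -0.14 without the Ctrl 1 liver, 0.14 without that transcript and 0.43 for the whole list with library size alone, so the sum gave no stable direction.

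Monocytes are the blood precursors of inflammatory macrophages. Of 71 monocyte-restricted transcripts, 48 were tested, 5 rose (10.4%) and 14 fell (29.2%), against 20.3% and 20.5% of all transcripts tested, with a median of -0.21. After MDA, 9 of the 48 rose and 6 fell against the same Ctrl livers (median 0.12), where 10.6% and 11.3% of all transcripts did. In the direct contrast of APAP with MDA livers 15 of the 48 were lower after APAP and 3 higher, where 17.0% and 16.2% of all transcripts were. The summed level was 1369, 1110, 1279, 1648 and 1762 TMM-scaled CPM in the APAP livers, 2765 to 3324 in the Ctrl livers and 2648 to 3844 in the MDA livers. Every APAP liver lay below every Ctrl and MDA liver. The most abundant transcript of the list supplied 46.7% of the Ctrl sum at 13.7 CPM in sorted monocytes. Without it the APAP sums were 765 to 1308, the Ctrl sums 1495 to 1726 and the MDA sums 1982 to 3192, and the 3 groups did not overlap. The transcript left out held only 575 to 734 in the MDA livers. A different transcript supplied 48.6% of the whole MDA sum and stayed in. Its Ctrl level is not given here, so how far the place of MDA above Ctrl rests on that single transcript is not known. The log2 ratio of APAP to Ctrl was -1.12 for the whole list, -0.66 without that transcript and -0.43 with library size alone. On plain CPM the ranges were 1387 to 2102 in APAP and 1997 to 2837 in Ctrl livers, and they overlapped.

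**Figure D4:**
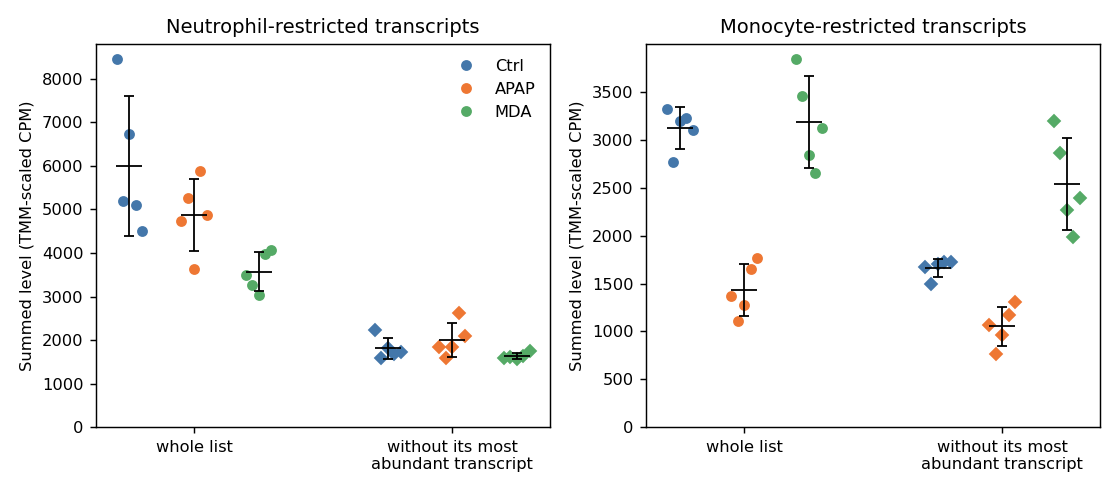
Summed level in TMM-scaled CPM of the neutrophil-restricted and the monocyte-restricted transcripts in each liver, for the whole list and without its most abundant transcript. Points are livers and black bars the mean ± SD (n = 5). The monocyte sums of APAP livers (1110 to 1762) lie below those of Ctrl and MDA livers, and the neutrophil sums overlap.

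NK cells are cytotoxic lymphocytes that are also resident in the liver. Of 54 NK-restricted transcripts, 16 were tested, 6 fell and 1 rose (median -0.52). The single CD4 T cell-restricted transcript did not pass the filter, and no transcript met the rule for B cells or CD8 T cells. With the 4 lymphocyte types pooled against the 2 myeloid types, a grouping chosen after seeing the data, 60 of 194 tested lymphoid transcripts fell (30.9%) and 36 rose (18.6%), with a median of -0.38. Of 525 myeloid transcripts, 122 fell (23.2%) and 138 rose (26.3%), with a median of 0.09. The lymphoid share that rose and the myeloid share that fell were near the 20.3% and 20.5% of all transcripts tested.

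The APAP livers were then read one by one. For each APAP liver, transcripts were called from the other 4 APAP livers and its own values were then compared with the Ctrl livers. The same Ctrl livers enter the call and the reading, which favours agreement, so these values describe how the animals differ and are no test of the change. The median log2 difference from the Ctrl mean was 0.72, 0.81, 0.82, 0.75 and 0.57 in APAP 1 to 5 for transcripts called higher, and -0.88, -1.04, -1.07, -0.83 and -0.69 for those called lower. APAP 5 had the smallest difference in both directions. Of the transcripts called higher without it, 76.7% exceeded all Ctrl livers in APAP 5, against 85.9% to 88.3% in the other APAP livers, and of those called lower, 81.4% lay below all Ctrl livers, against 86.1% to 92.0%. From 53 to 98 transcripts called higher and 22 to 59 called lower lay on the opposite side of the Ctrl mean in the liver left out.

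**Figure D5:**
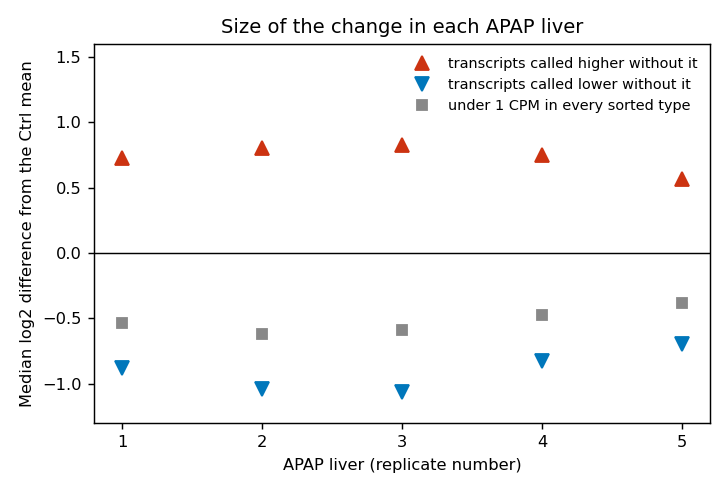
Median log2 difference of each APAP liver from the Ctrl mean, for transcripts called higher or lower with that liver left out, and for transcripts under 1 CPM in every sorted type. APAP 5 lies nearest to 0 in all 3 sets, at 0.57, -0.69 and -0.38.

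The distance of each liver from the mean of the other 4 of its group averaged 0.489 ± 0.0238 (SD, n = 5) in APAP and 0.514 ± 0.0503 in Ctrl livers on the log2(CPM + 1) scale. The difference of -0.0252 had a two-sided exact permutation p of 0.484. The distances were computed once and then reassigned between the groups. Each liver also enters the means from which the others of its group are measured. The distances of a group are therefore not independent, and every permutation p for spread given here is approximate. Without the Ctrl 1 liver the difference was 0.00621 (exact permutation p = 0.770). On the log2(CPM + 0.1) scale, which gives scarce transcripts more weight, it was -0.0945 (exact permutation p = 0.0159), and with a filter of 10 CPM it was 0.0209 (exact permutation p = 0.659). By transcript, the SD was larger in APAP than in Ctrl livers for 46.7% of all tested, for 57.9% of those that rose and for 51.7% of those that fell. Few changed transcripts varied much among the APAP livers alone. With an SD above 1 (log2) in APAP and under 0.5 in Ctrl livers, there were 10 of 1434 transcripts that rose and 9 of 1806 that fell, among those at a mean of 10 CPM or more. Of those 9, 8 were lowest in APAP 2 and 5 highest in APAP 5.

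The same transcripts were then set beside the MDA livers. The 2 comparisons with Ctrl share their control livers, so the difference was taken from the contrast of APAP with MDA, in which 16.2% of transcripts tested were higher and 17.0% lower after APAP. Of the 2738 transcripts that rose after APAP, 1495 were also higher than after MDA, 109 were lower and 1134 did not pass that test. Their median log2 fold change was 0.88 after APAP and 0.32 after MDA. Of the 2766 that fell, 1431 were lower than after MDA, 91 were higher and 1244 did not pass, with medians of -1.0 and -0.43. Because these sets were chosen on the APAP livers, the larger APAP median is a description. By class, 32 of the 111 transcripts at 1000 CPM and above in Ctrl livers were lower after APAP than after MDA and 15 were higher. Of the 1761 tested transcripts under 1 CPM in every sorted type, 583 were lower after APAP than after MDA and 193 higher. Changes in the same direction were called after both toxicants for 742 transcripts that rose and 1082 that fell. Over all transcripts tested, 10.6% rose and 11.3% fell after MDA, and the shared Ctrl livers favour calls in the same direction. Changes in opposite directions were found for 151 of the 13482 transcripts tested. All of these also differed between the toxicants, which opposite calls against shared controls make likely. Of these, 42 rose after APAP and fell after MDA, and 109 fell after APAP and rose after MDA.

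The following 4 transcripts illustrate the classes, each taken as the largest change with an adjusted p under 0.05 and no overlap in its class of Ctrl level. The largest rise from a Ctrl level of 10 CPM or more was that of ENSRNOT00000067391. It stood at 34.1, 28.8, 15.1, 16.8 and 15.1 TMM-scaled CPM in the Ctrl livers and at 8312, 5445, 3341, 4216 and 1185 in the APAP livers. The highest APAP value was in APAP 1 and the lowest in APAP 5. The log2 fold change was 7.68 (SE 0.54, edgeR quasi-likelihood adjusted p = 1.7e-07). The MDA livers were intermediate at 112 to 248, and the log2 difference of APAP from MDA was 4.69 (adjusted p = 4.6e-06). It was scarce in the sorted types, at 0.48 to 3.86 CPM.

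ENSRNOT00000009448 had the largest rise among transcripts under 1 CPM in Ctrl livers that reached 10 CPM in a sorted type. It was at 0 counts in all 5 Ctrl livers and at 17.3, 8.36, 49.0, 38.6 and 20.8 TMM-scaled CPM in the APAP livers (edgeR quasi-likelihood adjusted p = 5.8e-06). With the Ctrl livers set at 3 counts per library, the rise was 78.0-fold. The worth of 1 read is not known for this transcript, so that fold is a nominal value and no strict lower bound. The MDA livers held 3.10 to 7.36, all below the lowest APAP liver, and the log2 difference of APAP from MDA was 2.40 (adjusted p = 0.0018). Sorted neutrophils held 34.8 CPM, monocytes 25.3, B cells 15.1, NK cells 8.19, CD4 T cells 4.39 and CD8 T cells 1.23. It was thus seen in several of the sorted types, from blood and from spleen, and was restricted to none of them by the rule used above.

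The largest fall from 1000 CPM or more was that of ENSRNOT00000014180, which ranked 43 by mean level in Ctrl livers. It stood at 2071, 4173, 5371, 5077 and 5178 TMM-scaled CPM in the Ctrl livers, lowest in Ctrl 1, and at 27.5, 18.9, 62.2, 51.8 and 106 in the APAP livers. The log2 fold change was -6.36 (SE 0.50, edgeR quasi-likelihood adjusted p = 3.4e-07). The MDA livers were at 27.6 to 65.0, within the APAP range, and the log2 difference of APAP from MDA was 0.11 (adjusted p = 0.873). No sorted type exceeded 0.0584 CPM.

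The largest fall from a Ctrl level of 10 to 1000 CPM was that of ENSRNOT00000092008. The Ctrl livers held 8.52, 18.3, 44.1, 29.5 and 24.4 TMM-scaled CPM. All 5 APAP and all 5 MDA livers were at 0 counts (edgeR quasi-likelihood adjusted p = 6.5e-05 for APAP against Ctrl). With the APAP livers set at 3 counts per library, the fall was 114-fold, again a nominal value and no strict bound. It was at 0 in all 6 sorted types. Across the alternatives that tested them (edgeR, DESeq2 or limma), the adjusted p of these 4 transcripts was never above 0.00093. They were picked by their adjusted p and lack of overlap in these same livers, so their small p-values follow from the choice.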

How the data were processed

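RNA of 15 livers and 36 sorted immune cell samples was used. The libraries were directional and sequenced in pairs. The authors trimmed reads with PRINSEQ++, quantified transcripts with Salmon 1.6.0 on a decoy-aware index of the Ensembl Rnor_6.0 cDNA correcting for sequence bias and GC content, then imported them with tximport in R 4.1.3. The labels also name mRatBN7.2, and whether it was used for these values is not given in the sources used here. The methods call the deposited values TPM, yet the library totals lie far above that scale and differ, so the deposited values were used as estimated counts, rounded to whole numbers for the tests. Among 5523 transcripts seen in 5 to 30 samples, the smallest value above 0 had a median of 1.05 and a 5th to 95th percentile range of 0.210 to 30.2. The worth of 1 read therefore differs between transcripts.

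Transcripts whose mean over the 15 livers reached 1 CPM were tested with edgeR 4.0.16 (R 4.3.3), TMM scaling and glmQLFit over all 15 livers, with an adjusted p threshold of 0.05. DESeq2 1.42.0 and limma 3.58.1 were alternatives. Classes used plain CPM, and levels of single transcripts and sums used TMM-scaled CPM. For restriction to a sorted type, 1 CPM was added to both levels of the ratio. Class edges were 1, 10, 100 and 1000 CPM. The 4 named transcripts were the largest changes with an adjusted p under 0.05 and no overlap in 4 classes. No gene list was used, since identifiers could not be paired with names, and gene names and sequences were not analysed here. The classes, lists and comparisons were chosen with earlier results of these data known.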

Additional observations from a re-analysis of the deposited data

Results flagged for a closer look

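Each group of 5 livers was searched for a highest or lowest value whose gap to its nearest neighbour was large against the range. Of 38 groups of values examined, 3 were marked, and chance marks about 1 in 20. The Ctrl 1 liver lay 0.603 from the mean of the other Ctrl livers, on the log2(CPM + 1) scale. The APAP 3 liver had 39.9% of its total in the 100 transcripts most abundant in Ctrl livers, below the other APAP livers at 43.7% to 44.8%. The same liver had 20.8% of its total in transcripts at 10 to 100 CPM in the sorted types, the highest of the APAP livers. The causes were not tested.

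The other marked results are differences between APAP and MDA in their own contrast (edgeR quasi-likelihood test, adjusted p under 0.05). Of the 13482 transcripts tested, 151 changed in opposite directions after the 2 toxicants and differed between them, against 1824 called in the same direction after both. ENSRNOT00000067391 exceeded its MDA level in APAP livers by 4.69 on the log2 scale, and ENSRNOT00000009448 by 2.40. Both had been picked as the largest APAP rise of their class, which favours a difference from MDA.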

How the results depend on the processing

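With library size alone, 7505 transcripts rose and 966 fell. By Ctrl level, the counts higher and lower were then 4144 and 229 (1 to 10 CPM), 2338 and 397 (10 to 100), 307 and 283 (100 to 1000) and 26 and 51 (1000 and above). By sorted level they were 416 and 455 (under 1 CPM), 1378 and 201 (1 to 10), 4578 and 225 (10 to 100) and 1133 and 85 (100 and above). Neutrophil-restricted transcripts gave 40 higher and 5 lower, and monocyte-restricted ones 18 and 5. The summed levels gave log2 ratios of 0.43 (neutrophils, reversed) and -0.43 (monocytes). The spread difference reversed to 0.0110 (exact permutation p = 0.778). With TMM kept, the summed levels without their largest transcript gave 0.14 (neutrophils, reversed) and -0.66 (monocytes).

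Leaving the 100 most abundant transcripts out of the library size gave 575 lower at a Ctrl level of 1 to 10 CPM, 1276 higher at 10 to 100, 169 higher at 100 to 1000 and 15 higher at 1000 and above. By sorted level it gave 2475 higher and 643 lower at 10 to 100 CPM and 715 higher at 100 and above. A filter of 10 CPM, which tests 6079 transcripts, left 1660 lower. By Ctrl level it left 694 higher and 43 lower (1 to 10 CPM) and 144 higher (100 to 1000). By sorted level it left 66 higher and 461 lower (under 1 CPM), 91 and 268 (1 to 10) and 634 lower (10 to 100). It left 12 neutrophil transcripts higher, and 3 monocyte transcripts higher and 7 lower. The medians relative to all transcripts became -0.31 (neutrophils, reversed) and -0.84 (monocytes). The spread difference reversed to 0.0209. Without a filter the neutrophil median was 0.63. Classes by the mean of 15 livers gave 1234, 178 and 22 higher from 10 CPM up.

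Restriction at 2 times the next type gave 77 neutrophil transcripts higher and 56 lower (median 0.0502 relative to all) and 54 and 81 for monocytes. At 10 times it gave 2 higher and 0 lower (median 3.81) for neutrophils, and no tested transcript for monocytes. The median gap between transcripts under and above 1 CPM in sorted cells was -0.60 with limma on log2(CPM + 1), -0.21 without a filter and -1.14 with a filter of 10 CPM. The spread difference was -0.0945 on log2(CPM + 0.1).

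Leaving out 1 liver at a time gave 2462 to 2807 higher and 2437 to 2701 lower, and 5 to 9 higher at 1000 CPM and above. The monocyte median relative to all transcripts ranged from -0.36 (without APAP 4) to -0.21, and the spread difference from -0.0370 to 0.00621, reversed without Ctrl 1. With replicate number as a block, 2539 rose and 2618 fell, and 5 rose at 1000 CPM and above. Deviations from the group means of Ctrl and APAP livers of the same number correlated from -0.168 to 0.170. Among these, 1 of 5 APAP livers correlated best with the Ctrl liver of its own number, and the livers share only a number. DESeq2 gave 2773 and 2922, of which 2671 and 2745 were the transcripts called by edgeR. Where values moved, the causes were not tested. Depth limits transcripts at a few counts, for which fold sizes are nominal.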
